A study of Mus musculus with 4 samples.

Results

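The 10 genes described here are the 3 D cyclins (Ccnd1, Ccnd2 and Ccnd3), their partner kinases Cdk4 and Cdk6, the CDK inhibitors Cdkn1a, Cdkn1b, Cdkn2c and Cdkn2d, and the retinoblastoma gene Rb1. They were taken by name from the 20599 gene symbols in RNA-Seq libraries of mouse B cells, and all 10 passed the filter on low counts. A pair of cell types was compared, wild-type B1a cells from peritoneal washes (n = 2) and wild-type B2 cells, the follicular B cells of the spleen (n = 2). B1a cells are a self-renewing B lineage that arises mainly in early life and makes natural antibodies, and B2 cells are the conventional recirculating B cells that are replaced from the bone marrow. The mice were C57BL/6 by the labels and no treatment was given. The methods name littermates of Dnmt3a-deleted mice as the controls for RNA-Seq and, elsewhere, C57BL/6J mice as the controls of the study. The surface markers used to sort the cells included CD23- IgM+ CD5+ for B1a cells and IgD hi IgM lo CD21+ for B2 cells. By the methods the B1a mice were 4 weeks old and the B2 mice 8 weeks old, whereas the labels give 4 weeks for all libraries, so cell type, tissue and possibly age cannot be told apart.

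The D cyclins bind and activate Cdk4 and Cdk6 in the G1 phase of the cell cycle, and the active kinases phosphorylate the retinoblastoma protein, which then releases E2F transcription factors that drive S phase genes. INK4 inhibitors, here Cdkn2c and Cdkn2d, bind Cdk4 and Cdk6 directly, whereas the Cip/Kip inhibitors Cdkn1a and Cdkn1b bind cyclin-CDK complexes. In B cells D cyclins are induced by antigen receptor and cytokine signals, and Ccnd2 is the D cyclin classically associated with the B1a lineage. Much of the control of these proteins lies in their stability and binding, which RNA levels do not show.

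The library totals ranged from 11032732 to 18588623 counts. Levels are given as CPM, read counts scaled to a common library size. A floor of 3 counts was equal to 0.161 to 0.272 CPM, and every member was above it in every library. The sorting markers followed the labels. The summed CPM of Cd5, Spn and Itgam was 441 and 298 in B1a against 48.7 and 46.9 in B2, and that of Fcer2a and Cr2 was 162 and 153 against 1902 and 1942. Macrophage markers were also higher in B1a libraries. The summed level of the 9 markers was 215 and 244 CPM in B1a and 64.8 and 69.5 CPM in B2, and 4 of the 9 were higher in both B1a libraries. Timd4, Gata6 and Fcgr1 had at most 6 counts in every library. The summed level of 8 T cell markers was 68.8 to 108 CPM over all 4 libraries. Lck made up the largest part, at 56.5 and 45.1 CPM in B1a and 44.5 and 39.7 CPM in B2. Cd3d was at 14.6 and 18.3 CPM in B1a and 15.7 and 15.4 CPM in B2. Cd4, Cd28 and Thy1 were at 0 in both B1a libraries, and of the 8 markers only Lck was higher in both. The replicates of B1a were less alike than those of B2. Over 10745 genes the median fold between replicates was 1.41 in B1a and 1.15 in B2. For 8 of the 10 members the fold was larger in B1a. The share of all genes with a larger fold in B1a was not counted, so the 8 are not set apart from other genes. By the methods, the sorted input was 35000 to 100000 cells for B1a and 100000 for each B2 sample. The B1a libraries detected 11290 and 12456 genes, and the B2 libraries 14223 and 12934, by 1 or more counts. The part of cell input in the gaps between replicates was not tested, and Poisson intervals do not cover it. These are bulk libraries, so that fewer cells expressing a gene and less RNA per cell cannot be told apart.

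Of the 10 members 1, Ccnd2, was higher in B1a than in B2, and 0 were lower at an adjusted p under 0.05 in edgeR's quasi-likelihood test (2 members had an unadjusted p under 0.05, Ccnd2 and Cdk6). Of the 12078 genes tested, 4.24% were called higher and 1.5% lower, 5.74% in all, and 20.9% had an unadjusted p under 0.05. DESeq2, which called 12.9% of all genes, also called Ccnd2 alone among the members. The B1a and B2 libraries did not overlap for 5 of the 10 members, Ccnd2, Cdkn1a and Rb1 being above in both B1a libraries and Cdk4 and Cdk6 below; over all tested genes the groups did not overlap for 54.3%, with 25.3% above and 29% below. As a group the members had a median log2 fold change of 0.18, against -0.03 for all tested genes. Without B1a replicate 1, the members called higher were Ccnd2 and Cdkn1a, and Cdk6 was called lower. Without B1a replicate 2, 3 members were called higher (Ccnd2, Cdkn1b, Cdkn2d) and 4 lower (Ccnd1, Ccnd3, Cdk4, Cdk6). In these fits the spread rested on the B2 pair alone, and 31% of all genes (16.1% higher, 14.9% lower) and 48.9% (22.2% higher, 26.7% lower) were called, respectively. Without B2 replicate 1 or B2 replicate 2, Ccnd2 alone was called, as were 4.24% and 4.45% of all genes.

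**Figure D1:**
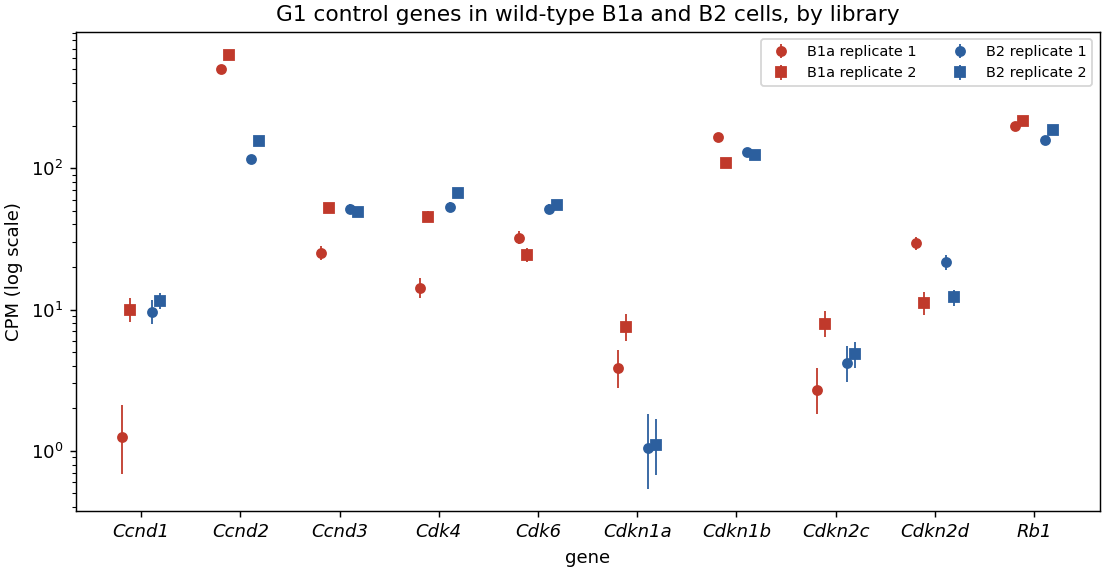
Level of the 10 genes in each library, in CPM on a log axis, with bars for the 95% Poisson interval of the count (counting error only). Both B1a points of Ccnd2 lie at 503 CPM or more and both B2 points at 155 CPM or less, while the B1a points of Ccnd1 and Cdk4 lie far from each other.

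Ccnd2 (chr6:127125162-127152193, minus strand) encodes cyclin D2. Its level was 503 and 627 CPM in the B1a replicates and 116 and 155 CPM in the B2 replicates. Both B1a libraries were above both B2 libraries, and the smallest gap between the groups was many times the counting error. The means were 565 ± 87.6 CPM (SD, n = 2) and 135 ± 27.6 CPM (SD, n = 2), a 4.17-fold difference (log2 fold change 2.06, SE 0.20, adjusted p = 0.00463), which ranked 129 among all tested genes by p. The call held in all 9 alternative settings and in the 4 fits that each left out a library, with log2 fold changes of 1.81 to 2.07 and 1.87 to 2.28, respectively, and a highest adjusted p of 0.0304 over the 9 settings, which called 2.98% to 12.9% of all genes. Of the macrophage markers, Lyz2, a lysozyme gene of myeloid cells, had a log2 fold change of 2.57, and Csf1r, the macrophage growth factor receptor, overlapped between the groups with one of -0.03. The part of such cells in the level of Ccnd2 was not tested.

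Ccnd3 (chr17:47505051-47599691, plus strand) encodes cyclin D3, which supports the expansion of B cell precursors and germinal center B cells. It measured 25.2 and 52.5 CPM in B1a and 51.1 and 49.0 CPM in B2. B1a replicate 1 was low and B1a replicate 2 was level with the B2 libraries, so the groups overlapped (log2 fold change -0.37, SE 0.39, adjusted p = 0.680). Without B1a replicate 1 the log2 fold change was 0.07, and without B1a replicate 2 it was -0.99 and passed the test (adjusted p = 0.00032).

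Ccnd1 (chr7:144929931-144939925, minus strand) encodes cyclin D1, the main D cyclin of many epithelial and mesenchymal cells. It was at 1.3 and 9.98 CPM in B1a and 9.63 and 11.6 CPM in B2, from 14 and 111 counts in B1a and 111 and 221 counts in B2. The low value of B1a replicate 1 had a Poisson interval of 0.686 to 2.11 CPM, so that the 7.95-fold gap between the B1a replicates was beyond counting error. The groups overlapped (log2 fold change -0.91, SE 1.08, adjusted p = 0.719). The log2 fold change was -3.07 without B1a replicate 2, when it passed the test (adjusted p = 2.6e-05), and -0.09 without B1a replicate 1 (adjusted p = 0.901).

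Levels of different genes were compared in TPM, the deposited transcript abundance scaled by gene length. The 3 D cyclins together summed to 233 and 315 TPM in B1a and 132 and 148 TPM in B2. Ccnd2 contributed 87.4% and 78.6% of this sum in the B1a replicates, and 41.7% and 49.1% in the B2 replicates. The mean share was 83.0 ± 6.21% in B1a and 45.4 ± 5.24% in B2 (SD, n = 2), a difference of 37.6 percentage points that was larger than the spread within either group. Ccnd3 contributed 12.3% and 19.5% in B1a and 53% and 45.2% in B2. It was thus a minor D cyclin in B1a and level with Ccnd2 in B2, where the TPM of Ccnd3 was 70.0 and 66.8 and that of Ccnd2 was 55.1 and 72.6. Ccnd1 contributed 0.335% and 1.92% in B1a and 5.31% and 5.61% in B2. An exact permutation test of 2 against 2 libraries cannot give a two-sided p under 0.33, so the shares were not tested. By expected counts, without the scaling by length, the difference in the Ccnd2 share was 24.2 percentage points.

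**Figure D2:**
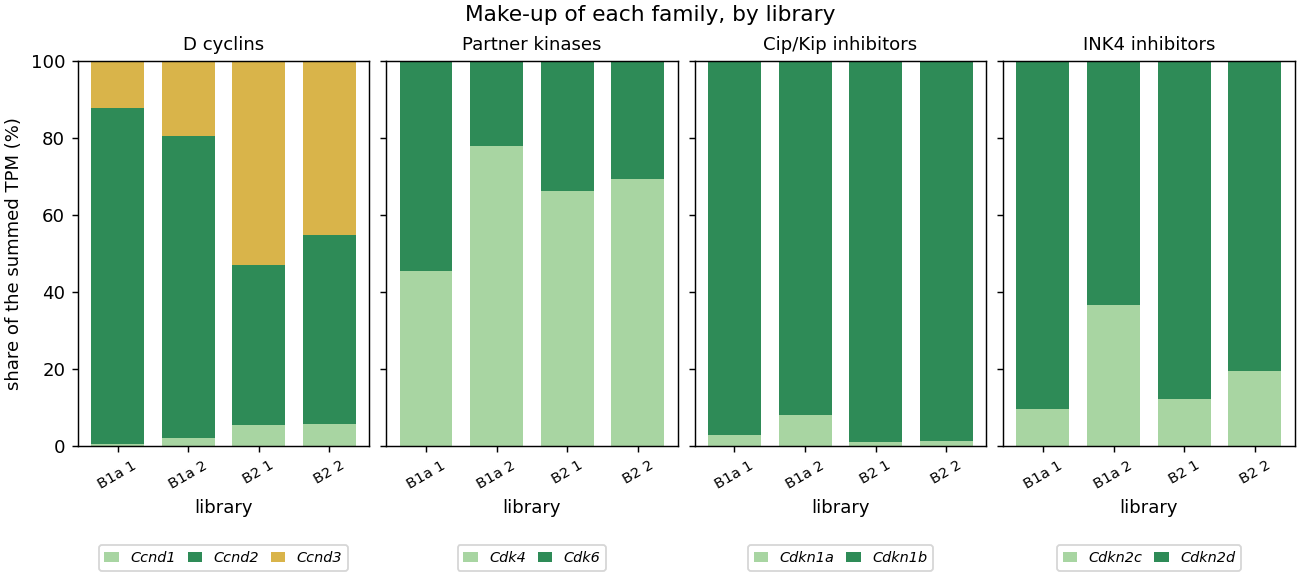
Share of each gene in the summed TPM of its family (y axis, percent), in each library (x axis), for the D cyclins, the partner kinases, the Cip/Kip inhibitors and the INK4 inhibitors. Ccnd2 takes 78.6% or more of the D cyclin sum in B1a and 49.1% or less in B2, whereas Cdkn1b takes 92.0% or more of the Cip/Kip sum in every library.

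Cdk4 and Cdk6, the kinases that D cyclins activate, had lower values in B1a, without overlap between the groups, and neither difference passed edgeR's test. Cdk4 (chr10:127063534-127067920, plus strand) measured 14.3 and 45.4 CPM in B1a and 53.3 and 66.2 CPM in B2. The 3.19-fold gap between the B1a replicates exceeded the 2.0-fold difference between the groups (log2 fold change -1.0, SE 0.54, adjusted p = 0.374). The Poisson intervals of the B1a replicates, 12.1 to 16.6 CPM and 41.5 to 49.6 CPM, did not meet. Without B1a replicate 2 the log2 fold change of Cdk4 was -2.07 and passed the test (adjusted p = 1.4e-13), and without the other libraries in turn it did not.

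Cdk6 (chr5:3341485-3531008, plus strand) measured 32.2 and 24.4 CPM in B1a and 51.2 and 54.9 CPM in B2. Its replicates were closer than those of Cdk4, 1.32-fold apart in B1a and 1.07-fold in B2. The mean was 1.88-fold higher in B2 (log2 fold change -0.91, SE 0.28), with an unadjusted edgeR p of 0.0184 and an adjusted p of 0.145. The adjusted p was 0.0853 to 0.138 over the 9 alternative settings, so that no setting that kept all 4 libraries called it. Without B1a replicate 1 the adjusted p was 7.8e-05 and without B1a replicate 2 it was 0.00727.

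The promoter of Cdk4 is shown because 4 E-boxes (CACGTG, the preferred site of MYC-MAX dimers, which reads the same on both strands) lie in it, and MYC is a known activator of this gene. The sequence holds the 250 bases upstream of the RefSeq start of Cdk4 (GRCm38.p6, chr10:127063285-127063534, plus strand), with the E-boxes in capitals.
Cdk4: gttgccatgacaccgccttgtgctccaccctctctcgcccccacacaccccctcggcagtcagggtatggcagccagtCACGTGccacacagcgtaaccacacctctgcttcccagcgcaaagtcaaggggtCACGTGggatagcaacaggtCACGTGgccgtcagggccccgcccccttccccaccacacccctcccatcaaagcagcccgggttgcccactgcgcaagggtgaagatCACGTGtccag
Of 32851 mouse promoters of this length in RefSeq, 6.02% held at least 1 CACGTG and 7 promoters, or 0.0213%, held at least 4. The upstream window of Cdk6 held 1. The promoter table matched 7 of the 10 members, in 10 windows, and the others, Ccnd1, Ccnd2 and Rb1, had no entry. Other motifs were counted in the same windows. The E2F sequences TTTCCCGC, TTTGGCGC, TTTCGCGC and TTTGCCGC matched none of them. GC boxes (GGGCGG) numbered 0 to 3 per window, and 32.7% of all promoters held at least 1. The motifs were chosen with values of these libraries known, and a match describes the letters and not binding.

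Together, Cdk4 and Cdk6 summed to 56.8 and 103 TPM in B1a and 172 and 200 TPM in B2. Cdk6 made up 54.5% and 22.2% of this sum in B1a and 33.8% and 30.6% in B2. The B1a values lay on either side of the B2 values, so the share showed no direction. The ratio of summed D cyclin TPM to summed Cdk4 and Cdk6 TPM, a quantity chosen after the values were seen, was 4.10 and 3.05 in B1a and 0.770 and 0.738 in B2, with means of 3.58 ± 0.741 and 0.754 ± 0.0231 (SD, n = 2). The ratio was higher in both B1a libraries. By expected counts, not scaled by length, it was 11.4 and 9.88 in B1a and 1.69 and 1.78 in B2, so that the side of 1 on which the B2 libraries lay depended on the unit. The deposited Cdk6 model has 2470 bases and the longest coding transcript in the GENCODE annotation 11525, so the TPM of Cdk6 depends on the model used.

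Cdkn1b (chr6:134920401-134925513, plus strand) encodes p27, an inhibitor that accumulates in resting lymphocytes. It measured 167 and 109 CPM in B1a and 129 and 125 CPM in B2. The B2 values lay between the B1a values (log2 fold change 0.12, SE 0.23, adjusted p = 0.846). The log2 fold change was -0.23 without B1a replicate 1 and 0.40 without B1a replicate 2, when it passed the test (adjusted p = 0.0348), and it was -0.15 in TPM. Cdkn1b was the main Cip/Kip transcript in every library, at 97.2% and 92.0% of the Cdkn1a and Cdkn1b TPM in B1a and 99.0% and 98.9% in B2.

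Cdkn1a (chr17:29090976-29100727, plus strand) encodes p21, the inhibitor that p53 induces after DNA damage. It was detected at 3.85 and 7.46 CPM in B1a, from 43 and 83 counts, and at 1.04 and 1.10 CPM in B2, from 12 and 21 counts. Both B1a libraries were above both B2 libraries, and the lowest Poisson bound in B1a, 2.79 CPM, was above the highest in B2, 1.82 CPM. The log2 fold change was 2.39 with an SE of 1.23, and the difference did not pass the test (adjusted p = 0.346). The adjusted p ranged from 0.0978 to 0.709 over the 9 alternative settings and was 0.0154 without B1a replicate 1. Summed TPM of Cip/Kip inhibitors was 170 and 114 in B1a and 152 and 145 in B2, in which Cdkn1a had little part.

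RefSeq gives Cdkn1a 2 promoter windows. The upstream one (GRCm38.p6, chr17:29090729-29090978, plus strand) is shown because ACATGT, a core of the p53 half-site that reads the same on both strands, occurs in it at 2 places, in capitals. The second window held 0.
Cdkn1a: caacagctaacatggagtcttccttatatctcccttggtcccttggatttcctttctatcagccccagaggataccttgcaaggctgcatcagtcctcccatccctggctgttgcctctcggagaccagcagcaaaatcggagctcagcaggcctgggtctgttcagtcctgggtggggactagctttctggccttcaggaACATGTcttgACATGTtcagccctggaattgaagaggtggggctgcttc
At least 1 ACATGT was found in 4.58% of the 32851 promoters and at least 2 in 0.247%. Trp53, the p53 gene, named here after its value was seen, was at 145 and 105 CPM in B1a and 104 and 106 CPM in B2 (log2 fold change 0.25, SE 0.20, adjusted p = 0.577).

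Of the INK4 inhibitors, Cdkn2d (chr9:21288410-21291407, minus strand), which encodes p19, measured 29.4 and 11.1 CPM in B1a and 21.5 and 12.2 CPM in B2. Both pairs of replicates were far apart, 2.66-fold in B1a and 1.77-fold in B2, and the groups overlapped (log2 fold change 0.27, SE 0.62, adjusted p = 0.874). Its direction depended on the libraries and the unit, with log2 fold changes of -0.60 without B1a replicate 1, -0.095 without B2 replicate 2, 0.81 without B1a replicate 2 (adjusted p = 0.0181) and -0.08 in TPM.

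Cdkn2c (chr4:109660876-109667189, minus strand) encodes p18, which restrains B cell proliferation and supports plasma cell formation. It measured 2.69 and 7.91 CPM in B1a and 4.16 and 4.81 CPM in B2, and the B1a replicates lay on either side of the B2 replicates (log2 fold change 0.24, SE 1.05, adjusted p = 0.932). Without B1a replicate 2 the log2 fold change was -0.74. Cdkn2d made up 90.4% and 63.4% of the summed INK4 TPM in B1a and 87.9% and 80.6% in B2. The length of the Cdkn2c model, which joins 2 transcripts, was 1106 to 2038 bases over the libraries, so that its TPM does not follow its CPM.

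Rb1 (chr14:73183673-73325822, minus strand) encodes the retinoblastoma protein, the target of the cyclin D kinases. It measured 199 and 215 CPM in B1a and 159 and 186 CPM in B2. The replicates were close, 1.08-fold apart in B1a and 1.17-fold in B2. Both B1a values were above both B2 values, and the difference of 1.2-fold was not past the threshold (log2 fold change 0.26, SE 0.15, adjusted p = 0.398).

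**Figure D3:**
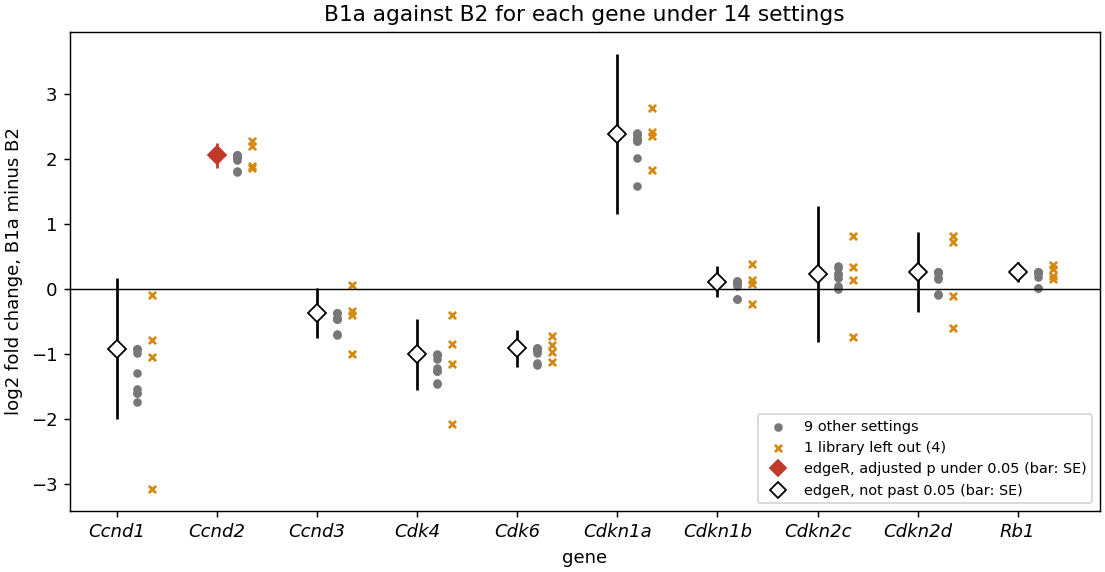
Log2 fold change (B1a minus B2) of each gene, from the edgeR test of all 4 libraries (diamonds, with bars of 1 SE), 9 alternative settings (dots) and 4 fits that each left out a library (crosses). Ccnd2 lies between 1.81 and 2.28 in all of them, and Ccnd3, Cdkn1b, Cdkn2c and Cdkn2d lie on both sides of 0.

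The order of the 10 genes differed between the cell types. In B1a the mean TPM was highest for Ccnd2 at 226, followed by Cdkn1b at 135, Rb1 at 104, Cdk4 at 53.1, Ccnd3 at 45.0, Cdkn2d at 38.7, Cdk6 at 26.9, Cdkn2c at 9.01, Cdkn1a at 7.0 and Ccnd1 at 3.41. Neighbours in this order had separate replicate ranges in 3 of 9 cases, Ccnd2 above Cdkn1b, Rb1 above Cdk4 and Cdk6 above Cdkn2c. In B2 the order was Cdkn1b at 147, Cdk4 at 126, Rb1 at 102, Ccnd3 at 68.4, Ccnd2 at 63.9, Cdk6 at 59.6, Cdkn2d at 38.0, Ccnd1 at 7.66, Cdkn2c at 6.64 and Cdkn1a at 1.57. Here 7 of 9 neighbours had separate ranges, and Ccnd3 overlapped Ccnd2, as did Ccnd2 and Cdk6. Ccnd2 thus ranked first in B1a and in the middle in B2, while Cdkn1b and Rb1 were among the 3 highest in both. The order within a cell type depends on the gene models, which the replicate ranges do not cover. The deposited Cdkn1b model has 2405 bases and the longest GENCODE coding transcript 4552, and for Cdk4 these lengths are 1347 and 2053. The summed inhibitor TPM, 233 and 147 in B1a and 208 and 178 in B2, overlapped between the groups.

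Among genes outside the 10, those with the profile closest to that of Ccnd2 were Myc, Mgat4b and Ppp1r3e. Closeness was the Euclidean distance between log2 CPM values centred on their mean over the 4 libraries, and was 0.067 for Myc, 0.120 for Mgat4b and 0.207 for Ppp1r3e. Myc, which encodes a transcription factor that promotes growth and proliferation, was at 363 and 456 CPM in B1a and 87.0 and 109 CPM in B2 (log2 fold change 2.06, SE 0.19, adjusted p = 0.0042). Mgat4b, a glycosyltransferase gene, was at 18.1 and 24.9 CPM in B1a and 4.51 and 5.75 CPM in B2 (adjusted p = 0.106). Ppp1r3e, which encodes a regulatory subunit of protein phosphatase 1, was at 6.36 and 8.36 CPM in B1a and 1.30 and 2.20 CPM in B2 (adjusted p = 0.344). Cdk4, whose promoter has the 4 E-boxes shown above, had both B1a libraries below both B2 libraries. Whether MYC acts on Cdk4 or on Ccnd2 in these cells was not tested.

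**Figure D4:**
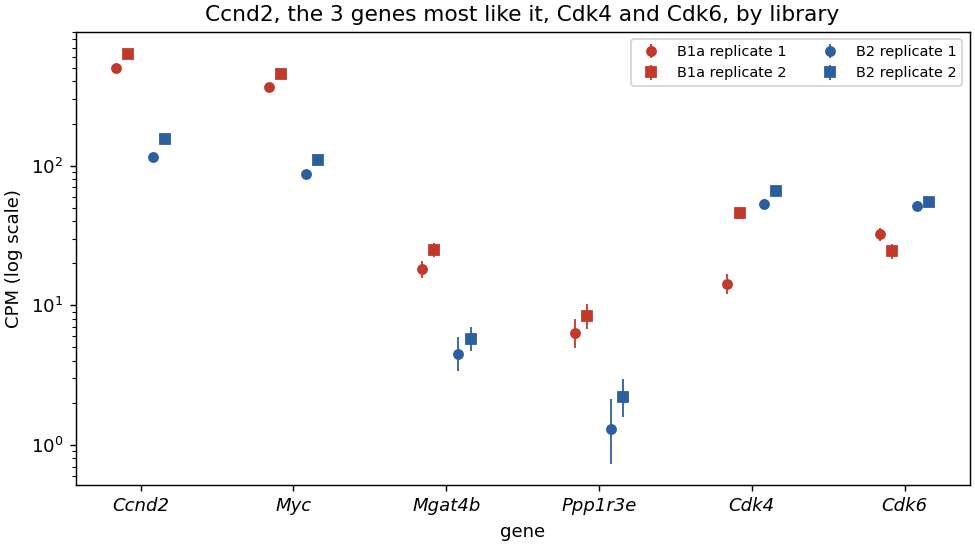
Level of Ccnd2, of the 3 genes most like it and of Cdk4 and Cdk6 in each library, in CPM on a log axis, with bars for the 95% Poisson interval. Ccnd2 and Myc keep the same spacing of the 4 libraries, both B1a libraries above both B2 libraries, and Cdk4 and Cdk6 have both B1a libraries below both B2 libraries.

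Other genes of the pathway were taken from 7 lists with 76 genes, of which 72 were tested. The lists were chosen with earlier results of these data known, so the shares called below are not a test of the pathway. Of the 72, 10 were called, 8 higher and 2 lower in B1a, or 13.9% against 5.74% of all tested genes, and the median log2 fold change was 0.06. Of 16 upstream transcription regulators of these genes 7 were called, 5 higher and 2 lower, and the median over the 16 was 0.18. The other 6 lists held 3 called genes between them. Without B1a replicate 1 or 2 in turn, when the B2 pair alone gave the spread, 14 and 20 genes were called higher and 11 and 17 lower, where 31% and 48.9% of all genes were called. Without B2 replicate 1 or 2 in turn, 5 and 6 were called higher and 2 lower, where 4.24% and 4.45% of all genes were called.

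The Kruppel-like factors Klf2, Klf4 and Klf6 were higher in B1a. Klf2, which keeps lymphocytes quiescent and directs their trafficking, was at 1366 and 1281 CPM in B1a and 495 and 502 CPM in B2 (log2 fold change 1.41, SE 0.10, adjusted p = 0.00236). Klf4, a factor that can restrain B cell proliferation, was at 132 and 118 CPM in B1a and 20.6 and 31.6 CPM in B2 (log2 fold change 2.25, SE 0.28, adjusted p = 0.00985). Klf6, a factor known to activate Cdkn1a, was at 819 and 923 CPM in B1a and 138 CPM in both B2 libraries (log2 fold change 2.66, SE 0.12, adjusted p = 0.000683). The groups were far apart for each of the 3, and each call held in all 9 alternative settings. Klf2, Klf4 and Klf6 are also expressed in myeloid cells, whose part in these differences was not tested.

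Foxo1, which encodes a transcription factor that activates Cdkn1b and represses D cyclin genes when phosphoinositide 3-kinase signaling is low, was at 248 and 220 CPM in B1a and 478 and 484 CPM in B2. It was lower in B1a (log2 fold change -1.04, SE 0.12, adjusted p = 0.00907). Bcl6, the germinal center repressor that represses Ccnd2, Cdkn1a and Prdm1, was at 43.8 and 15.9 CPM in B1a and 143 and 159 CPM in B2. It was also lower (log2 fold change -2.34, SE 0.47, adjusted p = 0.0469), and it passed the test in 7 of 9 alternative settings. Prdm1, which encodes the plasma cell regulator BLIMP1, was at 22.4 and 36.2 CPM in B1a and 4.16 and 4.13 CPM in B2 (log2 fold change 2.82, SE 0.51, adjusted p = 0.0346). Prdm1 was called in 6 of 9 settings, and not without B2 replicate 1 (adjusted p = 0.122) or B2 replicate 2 (adjusted p = 0.138). Summed CPM of 4 plasma cell markers, Prdm1 among them, was 82.8 and 109 in B1a and 80.4 and 111 in B2. Xbp1 made up most of each sum, at 60.2 and 58.7 CPM in B1a and 59.3 and 78.6 CPM in B2. Unlike Prdm1, Sdc1 was lower in B1a, at 0 and 8.27 CPM against 13.4 and 25.2 CPM. For Xbp1 and Jchain the groups overlapped.

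Of the 12 pocket protein, E2F and DP genes, which act below the D cyclin kinases, Tfdp1 was called. It encodes the dimerization partner of E2F factors and was at 51.5 and 58.7 CPM in B1a and 17.8 and 21.3 CPM in B2 (log2 fold change 1.49, SE 0.28, adjusted p = 0.0401). Tfdp1 was called in 7 of 9 alternative settings, and not without B2 replicate 1 (adjusted p = 0.383) or B2 replicate 2 (adjusted p = 0.203). The 12 genes had a median of -0.19. Of 14 genes that act in the turnover of D cyclins and CDK inhibitors, Fbxw7, the substrate receptor of a ubiquitin ligase for cyclin E and MYC, was called. It was at 204 and 217 CPM in B1a and 80.1 and 83.7 CPM in B2 (log2 fold change 1.36, SE 0.15, adjusted p = 0.00701), and the median of the 14 was 0.02.

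Of the 5 tested genes of cyclin E, cyclin A and CDK2, which act after the D cyclins, 0 passed edgeR's test, with 1 at an unadjusted p under 0.05 and 1 called by DESeq2 and by limma-voom, and the median was 0.45. Of the 3 genes of the CDK-activating kinase 0 passed edgeR's test, with 1 at an unadjusted p under 0.05 and 0 called by DESeq2 and limma, and the median was -0.45. Of 4 other CDK inhibitors only Cdkn2b, which encodes p15, passed the filter on low counts. It had 11 and 14 counts in B1a and 3 and 0 counts in B2, close to the floor, and Cdkn2a had 0 counts in every library. Of 21 tested S, G2 and M phase genes, Mki67, which marks cycling cells, was called. It was at 105 and 87.5 CPM in B1a and 23.4 and 40.5 CPM in B2 (log2 fold change 1.59, SE 0.32, adjusted p = 0.0488), while the median of the 21 was 0.08. Mki67 was called in 6 of 9 alternative settings and not without B2 replicate 1 (adjusted p = 0.169).

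**Figure D5:**
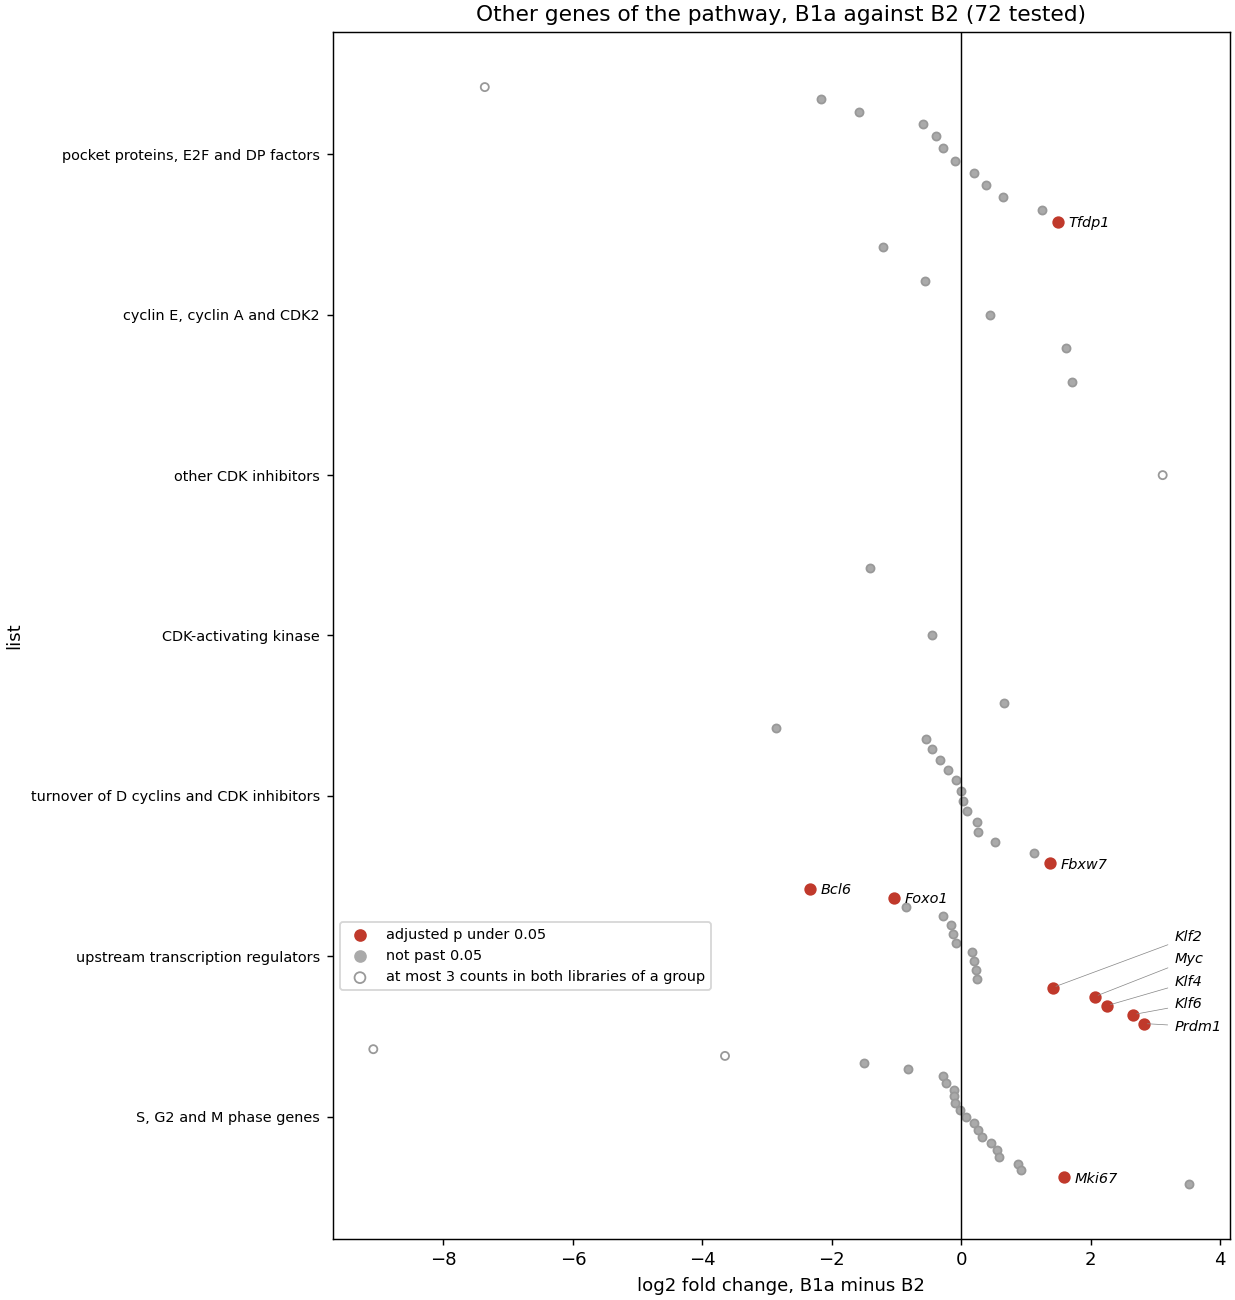
Log2 fold change (B1a minus B2, x axis) of the 72 tested pathway genes in 7 lists (y axis), with called genes in red and labelled; hollow points are genes with at most 3 counts in both libraries of a group, whose value depends on the prior count. The called genes are 8 to the right of 0 and 2 to the left, 7 of them upstream regulators.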

How the data were processed

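RNA was measured by RNA-Seq in 4 wild-type samples; the labels name a RiboErase kit, which removes ribosomal RNA, whereas the paper speaks of polyadenylated RNA. The authors aligned reads to mm10, quantified RefSeq genes with RSEM (version 1.2.29 per the labels; the methods name another) and deposited an expected count, a TPM value and a signal value, the posterior standard deviation of each count, for each of 21970 gene entries; deposited FPKM was not used. Posterior standard deviations of member counts were at most 6.66 counts. Entries were summed to 20599 symbols (951 symbols had several entries), and counts were rounded. After filterByExpr and TMM scaling, B1a and B2 were compared in edgeR 4.0.16 (glmQLFit, glmQLFTest; R 4.3.3), with Benjamini-Hochberg adjustment over 12078 genes and a threshold of 0.05. CPM values were scaled by TMM, and standard errors were derived from the F statistic. The biological coefficient of variation was 0.507. EBSeq, named in the methods, was not run. Library totals of 11032732 to 18588623 counts set the precision; Poisson intervals (95%) and the floor of 3 counts cover counting error only. Alternatives were DESeq2 1.42.0, upper quartile factors, limma-voom (limma 3.58.1) with and without a weight for each cell type, a minimum of 10 counts in each library or of 1 count in any, limma on log2(TPM + 1) and log2(TPM + 0.1) where the mean TPM reached 1, a replicate block, and each library left out in turn. The tests were tested on simulated data.

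The members, pathway lists and motifs were chosen with earlier results of these data known. Named genes were all members, Mki67, called pathway genes (at most 5 with the smallest p in each list and direction) and the 3 genes nearest to the member with the smallest p, by log2 CPM with a prior count of 2. Marker lists of neutrophils (0 to 6.64 summed CPM) and mesothelial cells (0 to 0.0867) were summed as well. Mast cell markers summed to 19.2 and 8.72 CPM in B1a and 1.47 and 0.941 CPM in B2, and all 3 were higher in both B1a libraries. Erythroid markers summed to 78.8 and 504 CPM in B1a and 36.1 and 80.8 CPM in B2. The part of such cells in the levels of the members was not tested. Gene positions are from the GENCODE annotation of GRCm38, and promoters from RefSeq.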

Additional observations from a re-analysis of the deposited data

How the results depend on the processing

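Ccnd2 kept its direction and its call in all 9 alternative settings and all 4 fits without a library. The values of Cdkn1b and Cdkn2d changed sign in TPM, to -0.154 and -0.084 with a pseudocount of 0.1 and to -0.153 and -0.079 with 1; there the median of all tested genes was -0.30 with a pseudocount of 1 and -0.32 with 0.1, against -0.03 by counts. In the same fits 5 pathway genes were higher (8 by counts) and 1 lower (2 by counts). The Ccnd2 share of D cyclins differed by 24.2 percentage points by expected counts, which are not scaled by length. All genes tested gave 693 calls with edgeR, 1562 with DESeq2, 1415 with weighted limma-voom, 1141 without a filter, and 359 in TPM with a pseudocount of 0.1.

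Libraries of the same number share only that number: their deviations from the group means correlated at -0.0347, and no source pairs them. With a replicate block, 1481 genes were called, 1 member was lower (Cdk4, adjusted p = 0.0179; lower calls over all genes were 4.9%) and 5 pathway genes were lower. The cause was not tested.

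Leaving out each library in turn gave 1 to 3 members higher and 0 to 4 lower, and 5 to 20 pathway genes higher and 2 to 17 lower; without a B1a library the spread came from the B2 pair alone. Differences in share ranged from 33.2 to 42 percentage points for Ccnd2, -10.0 to 22.3 for Cdk6, -6.95 to -1.79 for Cdkn1b and -20.8 to 6.17 for Cdkn2d. Cdk6 turned sign without B1a replicate 1 and Cdkn2d without B1a replicate 2. Log2 fold changes ranged from -0.99 to 0.068 for Ccnd3, -3.07 to -0.09 for Ccnd1, -0.23 to 0.40 for Cdkn1b, -0.74 to 0.81 for Cdkn2c and -0.60 to 0.81 for Cdkn2d (-0.095 without B2 replicate 2). The cause of these turns was not tested. The differences of Ccnd1 and Cdk4 between the groups were smaller than the gap between their B1a replicates.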

Other observations

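Some genes of the pathway lists, named here after their values were seen, differed between the B1a replicates as Ccnd1 and Cdk4 did. Ccnh, the cyclin of the CDK-activating kinase, had 1 count in B1a replicate 1 and 191 in B1a replicate 2, against 182 and 571 in B2. E2f5 had 0 and 48 counts in B1a and 122 and 169 in B2. Cdc6, a replication licensing gene, went the other way, with 268 and 33 counts in B1a and 10 and 28 in B2. Cdc20, a mitotic activator of the anaphase-promoting complex, did not differ in this way. It had 0 counts in both B1a libraries and 51 and 111 in B2, and edgeR's test did not call it (adjusted p = 0.0923). Tyms, which makes thymidylate for DNA synthesis, was abundant in both cell types, at 945 and 817 CPM in B1a and 985 and 910 CPM in B2 (log2 fold change -0.11, SE 0.12, adjusted p = 0.703).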
